A study of Rattus norvegicus with 6 samples.

Results

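The renin-angiotensin genes described here are Agt, Agtrap, Ace, Agtr1a, Agtr1b, Agtr2, Atp6ap2 and Enpep, read in cultured brainstem cells of a hypertensive and a normotensive rat strain. They were chosen by name, with earlier results of these data known. Every probe of the series table with 1 of these names as its single gene symbol was taken, whatever its value. This gave 11 probes for 7 of the 8 genes, out of 33849 probes in the table, of which 16753 have a single symbol. Agtr2, the second type of angiotensin receptor, had no such probe and was not analysed here. All 11 probes had values above 0 on all 6 arrays and all were tested.

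The spontaneously hypertensive rat (SHR) is a rat line bred for raised blood pressure, and the Wistar Kyoto rat (WKY) is its usual normotensive comparison strain. Brainstem cells of each strain were cultured, and 3 RNA samples per strain, each pooled from 3 dishes, were hybridised to single-colour CodeLink rat arrays. The study asks which transcripts differ between the strains in these cells. No treatment is labelled, the 2 groups differ by strain alone in the labels, and the sources used here give neither the animals' age and sex nor the time in culture. The design text calls the 3 samples of a strain independent biological replicates, without saying whether they came from separate litters or culture days.

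Angiotensinogen (Agt) is the precursor of angiotensin I, and angiotensin-converting enzyme (Ace) turns angiotensin I into angiotensin II. Angiotensin II acts through the AT1 receptors, of which rats have Agtr1a and Agtr1b, and the AT2 receptor Agtr2. In the brain Agt is made mainly by astrocytes, and brainstem AT1 receptors take part in the control of blood pressure. Agtrap binds the tail of the AT1 receptor and favours its internalisation, Enpep (aminopeptidase A) trims angiotensin II to angiotensin III, and Atp6ap2, the (pro)renin receptor, is also an accessory subunit of the vacuolar proton pump.

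Values are log2 intensities of the submitters' quantile normalized table, in which every array has a median of 520 intensity units and a lower quartile of 143. Arrays of one strain correlated at 0.969 to 0.979 over probes and arrays of different strains at 0.964 to 0.977. Differences are given as SHR minus WKY, with the standard error (SE) of the limma fit over 33249 probes. With 3 arrays a strain, precision is limited by their number. Astrocyte markers were measured for all 12 listed genes and their summed intensity was 205644 to 213758 in SHR and 205000 to 213439 in WKY. Such a sum weighs its brightest markers most, among them Slc1a3 (mean log2 15.10 in SHR and 15.11 in WKY) and Gja1 (15.03 and 14.97). Whether values this bright were near the upper limit of the arrays was not tested. Microglia and macrophage markers were also bright (217556 to 224229 in SHR and 225729 to 234052 in WKY, without overlap, 12 of 12 measured). Of these 2 stood higher and 10 lower in SHR, with a median difference of -0.08. Their sums too weigh the brightest markers most, among them Aif1 (mean log2 15.21 in SHR and 15.18 in WKY) and C1qa (15.18 and 15.23). Of the neuron markers 10 of 13 were measured, with sums of 32733 to 55125 in SHR and 35639 to 53745 in WKY, and the neuronal genes Rbfox3, Map2 and Syt1 had no probe with that single symbol.

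Agtrap stood higher in SHR at all 3 of its probes, by 1.66, 1.15 and 0.33, and Agt stood lower in SHR by 0.81 at its probe, while Ace and Atp6ap2 differed by at most 0.15 at 4 probes. Enpep stood higher in SHR by 1.40, with a wide interval and values below the array median on all arrays. Of the AT1 receptors, Agtr1a differed by -0.08 and Agtr1b by 0.90 with overlapping strains. No probe of these genes passed an adjusted p of 0.05 in limma (smallest adjusted p = 0.328), as no probe of the whole table did (0% of 33249). An unadjusted p under 0.05 was found at 5 of the 11 probes, 4 higher and 1 lower in SHR, where 7.65% of all probes had one (3.65% higher and 4.01% lower). The 5 probes belong to 3 genes, and 3 of them read the same gene, so they are not 5 independent cases. The count was 3 without SHR 1, without SHR 3, without WKY 1 or without WKY 3. The strains did not overlap at 6 of the 11 probes, 5 higher and 1 lower in SHR, against 13.4% of all probes with 6 values. The genes, Agt and Agtrap among them, were chosen with earlier results of these data known, so neither count tests the set against all probes. The median difference was 0.15 over the 11 probes and -0.0099 over all probes. The split of all probes at an unadjusted p under 0.05, 1212 higher and 1333 lower, was 1542 and 846 in intensities not normalized between arrays and 904 and 1786 in median-centred ones. An exact two-sided permutation test of 3 against 3 arrays cannot give a p below 0.10, which was the p of each probe without overlap.

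**Figure D1:**
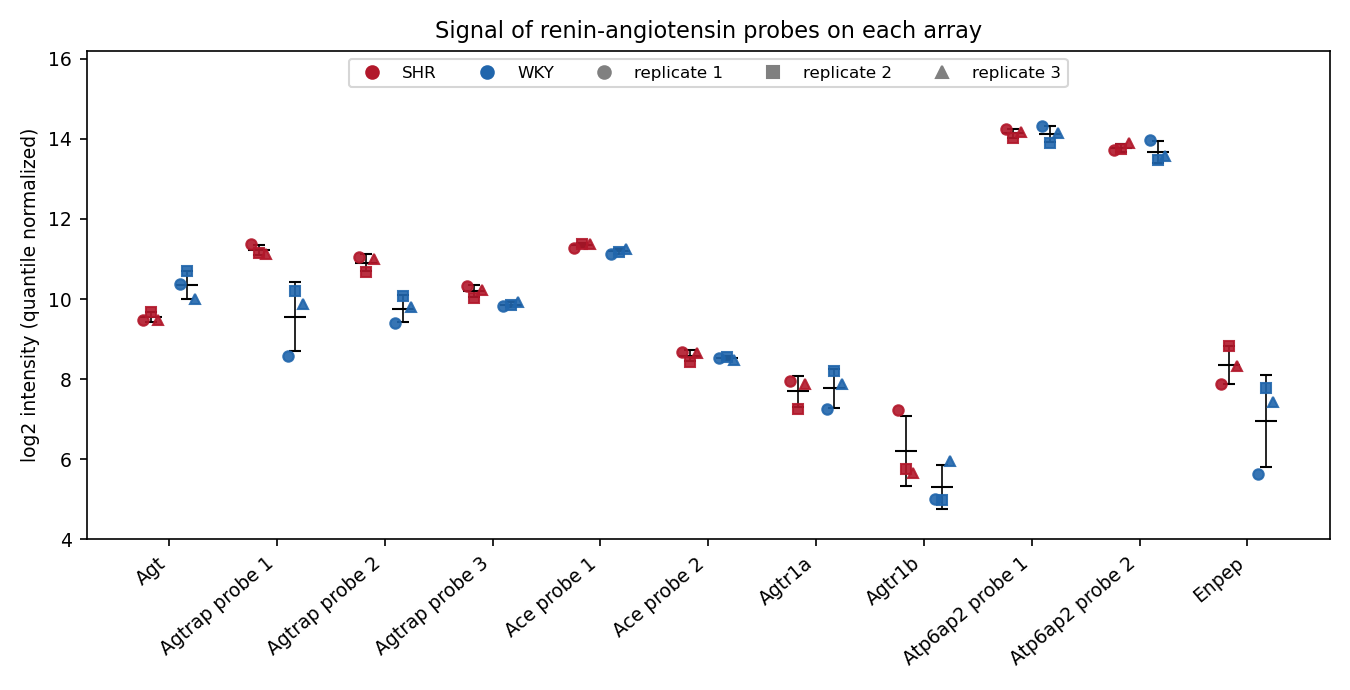
Log2 intensity (vertical axis) of each renin-angiotensin probe on each array, with SHR in red and WKY in blue, marker shape for the replicate, and bars for the mean ± SD of 3 arrays. The 3 Agtrap probes are higher on every SHR array than on any WKY array, Agt is lower on every SHR array, and WKY 1 is the lowest array at Enpep and at Agtrap probe 1.

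The upstream sequence of Agtrap is shown because it is the gene with the largest difference, and that of Enpep because it is the other gene whose difference was above 1. Both are RefSeq promoter sequence of build GRCr8, from 250 bases before the annotated start to the base before it, 5′ to 3′ on the gene's strand. RefSeq promoter entries were found for 7 of the 8 genes. Agtrap lies on the minus strand, with the window at chr5:163802175-163802424, and Enpep on the minus strand, with the window at chr2:220526219-220526468. Capitals mark matches on either strand to an E-box, spelled CACGTG here. They also mark the CCAAT box, spelled CCAAT or ATTGG by strand, the GC box, spelled GGGCGG, and the TATA box, spelled TATAAA. These motifs do not overlap one another in the windows shown.

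Agtrap: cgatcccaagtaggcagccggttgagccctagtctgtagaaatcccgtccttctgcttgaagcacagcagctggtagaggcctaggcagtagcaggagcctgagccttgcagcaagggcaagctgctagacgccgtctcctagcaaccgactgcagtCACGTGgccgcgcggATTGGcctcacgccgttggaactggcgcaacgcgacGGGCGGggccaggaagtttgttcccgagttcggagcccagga
Enpep: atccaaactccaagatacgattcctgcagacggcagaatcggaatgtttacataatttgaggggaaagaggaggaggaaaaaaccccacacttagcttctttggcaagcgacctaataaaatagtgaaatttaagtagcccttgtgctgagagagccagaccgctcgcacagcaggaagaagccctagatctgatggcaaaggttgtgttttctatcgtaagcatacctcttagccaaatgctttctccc

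The Agtrap window holds 1 E-box whose first base is at -93 from the start, 1 CCAAT match at -78, read on the opposite strand, and 1 GC box at -42, and no TATAAA. No match to any of the 4 motifs is in the Enpep window. Of 33469 rat promoter windows of the same length, 5.59% hold that E-box, 34.0% the CCAAT box, 30.5% the GC box and 12.9% the TATA box. The G and C content is 62.4% at Agtrap and 45.2% at Enpep. The arrays measured no binding or methylation there, so these matches are a description of the letters.

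Agt, the only precursor of the angiotensins, had 1 probe. Its log2 intensity was 9.47, 9.69 and 9.48 on SHR 1 to 3 and 10.38, 10.70 and 9.999 on WKY 1 to 3. All 3 SHR arrays were below all 3 WKY arrays, with a gap of 0.31 between the nearest arrays, and the SHR arrays lay closer together. Mean values were 9.55 ± 0.12 (SD, n = 3) for SHR against 10.36 ± 0.35 for WKY, which differ by -0.81 ± 0.20 (SE; 95% interval -1.30 to -0.32), or 1.76-fold brighter in WKY. The adjusted p over all probes in limma was 0.516, and between 0.360 and 0.852 over 18 alternative settings. The unadjusted p was 0.0062, and 4.33% of all probes had a difference of at least this size in either direction. The difference ran from -0.99 without WKY 3 to -0.64 without WKY 2. Since the strains did not overlap, leaving out 1 array could not turn its direction.

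Since Agt is a gene of astrocytes, the astrocyte markers are set beside it. Of the 12 markers 6 stood higher and 6 lower in SHR, with a median difference of 0.03, and none had a value at or under 0. Their mean log2 deviation per array was -0.02, 0.08 and 0.11 in SHR and 0.0031, -0.11 and -0.07 in WKY. Gfap, the astrocyte filament gene, differed by -0.05 ± 0.18. An unadjusted p under 0.05 was found at 2 of the 12, in opposite directions: Aldh1l1, a folate enzyme, at -0.45 ± 0.16 and Gjb6, a gap junction gene, at 1.28 ± 0.38. Oligodendrocyte lineage markers, with 11 of 12 measured, stood lower in SHR at 10 genes and higher at 1, the same direction as Agt, with a median of -0.76 and 3 at an unadjusted p under 0.05. They summed to 64079 to 114825 in SHR and 109098 to 125634 in WKY, and Enpp6 (-1.51 ± 0.48) and Mobp (-1.46 ± 0.51) differed most among them. Cspg4, among the 3, is also on the pericyte list, and Pdgfra, the higher one, is also on the fibroblast list. Over the brightest probes of all named genes 6.84% had an unadjusted p under 0.05. In such bulk RNA, fewer cells of a type and less RNA per cell cannot be told apart.

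Factors known to act on Agt transcription, a list of 19 genes, had 16 measured. Of these 4 stood higher and 12 lower in SHR, with a median of -0.12 against -0.0012 over the brightest probes of all named genes, and 0 were higher and 1 was lower at an unadjusted p under 0.05. That gene was Thrb, a thyroid hormone receptor, at -0.80 ± 0.23, with -0.20, -0.30 and -0.44 at its other probes and an adjusted p of 0.542 in limma. With every probe of the list counted, 2 of 30 had an unadjusted p under 0.05, against 7.65% of all probes. The other was a Stat3 probe at -0.62 ± 0.21. Stat3 gave -0.09 ± 0.13 at its brightest probe and -0.48 ± 0.21 at its remaining probe. Usf2, an E-box binding factor, gave -0.30 ± 0.13 and the liver X receptor Nr1h3 gave -0.36 ± 0.16 (-0.23 without WKY 3). None passed the threshold.

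Agtrap, the AT1 receptor-associated protein, had 3 probes, numbered here by brightness. Probes 1 and 2 were designed against the same reference transcript (NM_001007654) and probe 3 against an expressed sequence tag (BU671113), per the platform annotation. Probe 1 gave 11.36, 11.16 and 11.13 in SHR and 8.58, 10.21 and 9.89 in WKY. Probe 2 gave 11.04, 10.67 and 11.01 in SHR and 9.40, 10.07 and 9.80 in WKY. Probe 3 gave 10.32, 10.03 and 10.23 in SHR and 9.82, 9.84 and 9.93 in WKY. At each probe all SHR arrays were above all WKY arrays, with gaps of 0.93, 0.60 and 0.10, and WKY 1 was the lowest array each time.

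The strain difference of Agtrap was 1.66 ± 0.41 (SE; 95% interval 0.67 to 2.65) at probe 1, a 3.16-fold difference in intensity. It was 1.15 ± 0.21 (0.64 to 1.66) at probe 2, or 2.22-fold, and 0.33 ± 0.13 (0.0096 to 0.65) at probe 3, or 1.26-fold. The adjusted p in limma was 0.513, 0.328 and 0.645, and the unadjusted p was 0.0060, 0.0013 and 0.045. A difference at least as large was found at 0.370%, 1.27% and 27.0% of all probes. Leaving out WKY 1 brought probe 1 to 1.17 and probe 2 to 0.97. With strains that do not overlap, no left-out array could turn a direction. The unadjusted p stayed under 0.05 in all 18 alternative settings at probes 1 and 2 and in 12 of 18 at probe 3. The lowest adjusted p over these settings was 0.118, at probe 2 when limma's prior was made robust and intensity-dependent, and the highest for that probe was 0.702.

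**Figure D2:**
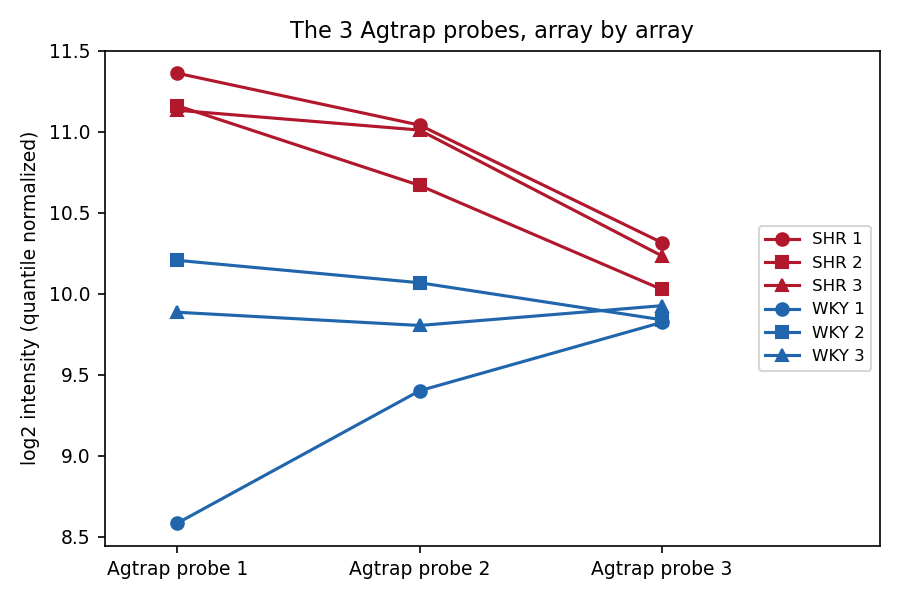
Log2 intensity (vertical axis) of the 3 Agtrap probes, with a line joining the values of each array (SHR in red, WKY in blue). Strains are separate at each probe, the gap narrows from 0.93 at probe 1 to 0.10 at probe 3, and WKY 1 is lowest at each.

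The 3 probes stood in one direction by unequal amounts. The values of probes 1 and 2 correlated at 0.96 over the 6 arrays, those of probes 1 and 3 at 0.81 and those of probes 2 and 3 at 0.91, as a description of arrays that differ by strain. The log2 ratio of probe 1 to probe 3 was 0.90 to 1.14 in SHR and -1.24 to 0.37 in WKY, without overlap (exact two-sided permutation p = 0.1, the smallest possible here). The ratio of probe 2 to probe 3 was 0.64 to 0.78 in SHR and -0.42 to 0.23 in WKY, also without overlap (exact p = 0.1). The ratio of probe 1 to probe 2 overlapped between the strains. Which transcript forms the probes read was not tested, since no probe sequence was used here.

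Over the 6 arrays the genes most like Agtrap probe 1 were Ephx2 (Pearson r = 0.997, Spearman rho = 0.943), Kifc2 (0.991 and 1) and Klhl29 (0.990 and 1), out of 11662 genes compared by their brightest complete probe. Of those genes 49 had an r above 0.95. Ephx2, the soluble epoxide hydrolase gene, differed by 2.00 between the strains, Kifc2 by 0.32 and Klhl29 by 0.81. For Agt they were Hars1 (r = 0.986, rho = 0.986), Atg7 (0.980 and 0.943) and Snx33 (0.975 and 0.943), with 13 genes above 0.95. Their differences of -0.23, -0.27 and -0.32 were smaller than that of Agt. With 6 arrays and so many genes, high values of r arise easily, and they share the strain contrast.

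Enpep, the aminopeptidase A gene, had 1 probe. It read 7.88, 8.83 and 8.32 on the SHR arrays and 5.63, 7.77 and 7.43 on the WKY arrays. The strains did not overlap, but the gap between SHR 1 and WKY 2 was 0.11, and WKY 1 lay far below the other arrays. The difference was 1.40 ± 0.58 (SE; 95% interval 0.0040 to 2.79), or 2.64-fold, with an adjusted p of 0.651 in limma and an unadjusted p of 0.050. Without WKY 1 it was 0.74, and with an offset of 50 units before log2 it was 1.05. The unadjusted p was under 0.05 in 8 of 18 alternative settings.

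Enpep is known from pericytes and other vessel-associated cells, whose markers are given beside it. Pericyte and smooth muscle markers, with 9 of 10 measured, had 3 genes higher and 6 lower in SHR and summed to 20649 to 23702 in SHR and 19308 to 27886 in WKY. Endothelial markers, with 8 of 10 measured, had 6 genes higher and 2 lower in SHR and summed to 7405 to 8835 in SHR and 6621 to 7527 in WKY. Fibroblast and meningeal markers, with 10 of 11 measured, summed to 35550 to 43511 in SHR and 24411 to 34741 in WKY, without overlap, and 9 of the 10 stood higher in SHR. Ependymal and choroid plexus markers, with 8 of 8 measured, summed to 9769 to 15218 in SHR and 3422 to 6069 in WKY, without overlap. Of these 5 stood higher and 3 lower in SHR, from Ttr, the transthyretin gene, at 2.66 ± 0.60 to Clic6 at -0.74 ± 0.24, and Clic6 and Aqp1 had a value not above 0 on at least 1 array. An unadjusted p under 0.05 was found at 1 pericyte, 1 endothelial, 4 fibroblast and 4 ependymal markers of these lists, the ependymal ones in both directions. Over the brightest probes of all named genes the share was 6.84%. No marker passed the adjusted threshold, and the part of these cells in the values of Enpep, Agtrap or Agt was not tested.

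Ace, the converting enzyme, had 2 probes. Probe 1 gave 11.29, 11.38 and 11.37 in SHR and 11.14, 11.18 and 11.26 in WKY. Probe 2 gave 8.68, 8.44 and 8.64 in SHR and 8.54, 8.56 and 8.48 in WKY. At probe 1 the strains were separate by only 0.02, and at probe 2 they overlapped. The differences were 0.15 ± 0.12 (SE; 95% interval -0.13 to 0.43) and 0.06 ± 0.13 (-0.24 to 0.37), with adjusted p of 0.758 and 0.910 in limma. Leaving out single arrays took probe 2 from 0.017 without SHR 1 to 0.14 without SHR 2, with 0.037 without SHR 3 and 0.040 without WKY 3. At probe 1 the interval spans an SHR to WKY intensity ratio of 0.914 to 1.35.

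Atp6ap2, the (pro)renin receptor, had 2 bright probes. Probe 1 gave 14.24, 14.02 and 14.17 in SHR and 14.31, 13.91 and 14.13 in WKY. Probe 2 gave 13.71, 13.73 and 13.90 in SHR and 13.97, 13.46 and 13.58 in WKY. The strains overlapped at both, and WKY 1 was the highest array. The differences were 0.02 ± 0.15 (95% interval -0.34 to 0.39) and 0.11 ± 0.17 (-0.30 to 0.52). The direction of the small difference at probe 1 turned without SHR 1 or without WKY 2. At probe 2 the difference was 0.051 without SHR 3, 0.26 without WKY 1, 0.0042 without WKY 2 and 0.064 without WKY 3.

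The AT1 receptor genes were also dim. Agtr1a gave 250, 152 and 235 intensity units in SHR and 151, 296 and 234 in WKY, all below the array median, and the strains overlapped fully. On the log2 scale its difference was -0.08 ± 0.31 (95% interval -0.82 to 0.66), which turned direction without SHR 2 or without WKY 2. Agtr1b gave 149, 54.1 and 50.5 units in SHR and 32.1, 31.4 and 62.0 in WKY. All but SHR 1 were under the lower quartile of the array. Its difference was 0.90 ± 0.49 (-0.27 to 2.07) with an adjusted p of 0.692 in limma, and it was 0.40 without SHR 1 and 0.49 with an offset of 50 units. Agtr1a and Agtr1b are close paralogs, and whether each probe reads only its own gene is not given in the sources used here.

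**Figure D3:**
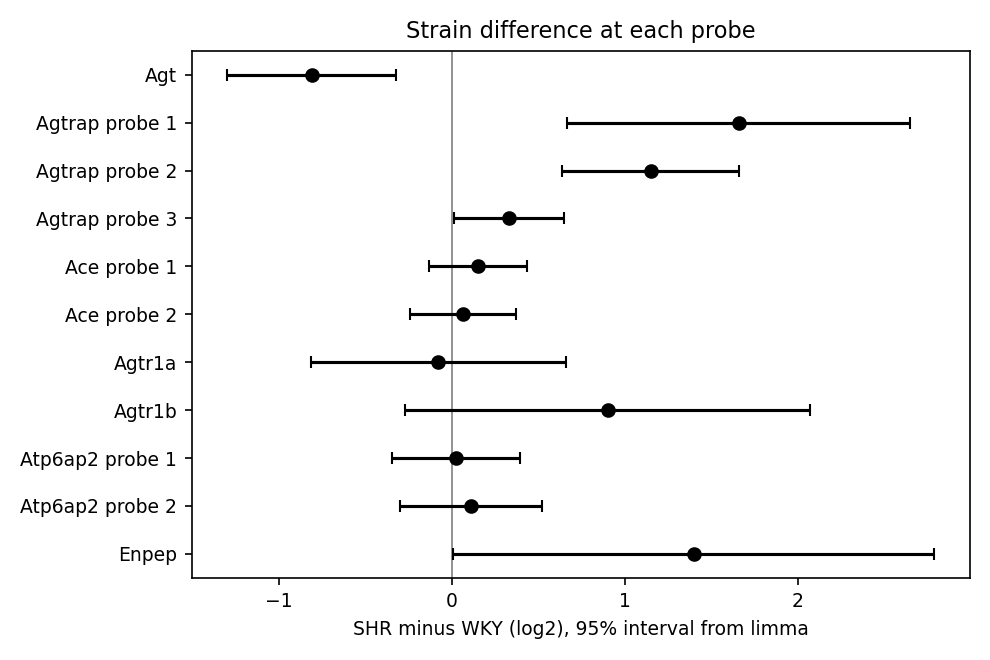
SHR minus WKY difference in log2 intensity (horizontal axis) at each probe, with the 95% interval of the limma fit. Intervals of Agt, the 3 Agtrap probes and Enpep do not cross 0, from -1.30 to -0.32 for Agt and from 0.64 to 1.66 for Agtrap probe 2, and none of these probes passed the adjusted threshold.

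**Figure D4:**
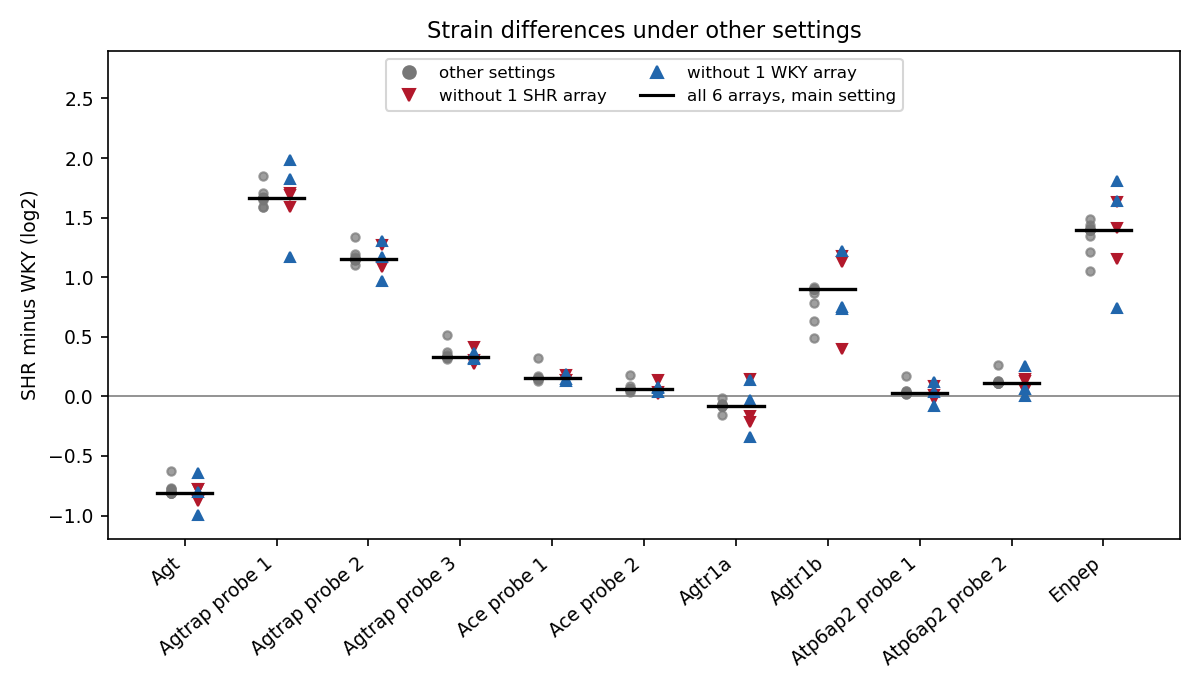
SHR minus WKY difference (vertical axis, log2) of each probe with all 6 arrays (black line), under up to 12 other settings (grey) and with 1 array left out (red for SHR, blue for WKY). Agt stays between -0.99 and -0.63 and Agtrap probe 1 between 1.17 and 1.98, Enpep falls to 0.74 without WKY 1 and Agtr1b to 0.40 without SHR 1.

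The other genes of the system were taken from lists of related genes, using the brightest probe of each. Of 108 symbols in 6 lists, including that of Agt regulators, 91 were measured. An unadjusted p under 0.05 was found at 7 of them (7.69%), 2 higher and 5 lower in SHR. Over the brightest probes of all 12082 named genes this share was 6.84%, so by this count the lists lay near the background. The count was 3 without SHR 1 or SHR 3, 13 without WKY 1, 4 without WKY 2 and 2 without WKY 3. None of the 91 passed an adjusted p of 0.05 in limma. Of the 91, 32 stood higher and 59 lower in SHR, with a median of -0.08 against -0.0012 over the brightest probes of all named genes.

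Among other peptidases and receptors of angiotensins, 14 of 21 listed symbols were measured (Cltrn is also listed under an older symbol, Tmem27), with 4 higher and 10 lower in SHR and a median of -0.07. At an unadjusted p under 0.05 there were 0 higher and 1 lower. Prcp, a carboxypeptidase that cleaves angiotensin II, read 12.09, 12.11 and 11.78 on the SHR arrays and 12.35, 12.26 and 12.55 on the WKY arrays, differing by -0.39 ± 0.16 (adjusted p = 0.638 in limma), with -0.24 at its other probe. Anpep (aminopeptidase N), which acts on angiotensin III after Enpep, gave -0.61 ± 0.27 at its brightest probe and 0.30 at a dim one. Cltrn gave -0.38 ± 0.27, and -0.15 without SHR 2 or -0.19 without WKY 1. The receptor genes Mas1 (-0.13 ± 0.46) and Lnpep (-0.08 ± 0.17) had overlapping strains, and both turned direction in at least 1 alternative. Mas1 was dim, with strain means (log2 6.61 in SHR and 6.73 in WKY) under the lower quartile of the array.

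Receptor partners and AT1 signalling genes had 19 of 22 listed symbols measured (Grk2 is also listed under an older symbol, Adrbk1). There were 5 higher and 14 lower in SHR, with a median of -0.14. At an unadjusted p under 0.05, 1 was higher and 1 lower. With every probe of the list counted, 4 of 29 had such a p, against 7.65% of all probes. They included a Mtus1 probe at 1.72 ± 0.66, with 0.13, 0.11 and 0.41 at its other probes. A Jak2 probe gave 0.85 ± 0.34, with -0.15 at its brightest probe. Itpr1, an inositol trisphosphate receptor of the calcium store, gave 0.45 ± 0.17 and was separate between the strains. Gna11, a G protein that couples AT1 to phospholipase C, gave -0.44 ± 0.18 with -0.33 at its other probe. Rgs5, a regulator of G protein signalling, gave -0.88 ± 0.37, and -0.54 without SHR 3 or -0.51 with an offset of 50 units. Rgs5 was dim, under the lower quartile of the array on every array (mean log2 5.79 in SHR and 6.67 in WKY). NADPH oxidase subunits, which make superoxide downstream of AT1, had 10 of 11 measured, 3 higher and 7 lower, with a median of -0.05. Cyba, the small membrane subunit, was the only one of them at an unadjusted p under 0.05, with 9.98, 10.36 and 10.28 on the SHR arrays and 10.56, 10.74 and 10.95 on the WKY arrays, differing by -0.54 ± 0.17 (adjusted p = 0.572 in limma). Noxa1 (0.11 ± 0.13, and 0.067 without SHR 3 or 0.073 without WKY 2) and Ncf4 (-0.19 ± 0.23) followed it.

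The proton pump that Atp6ap2 belongs to had all 18 listed subunits measured, 8 higher and 10 lower, with a median of -0.07, and 0 were higher and 1 lower at an unadjusted p under 0.05. Atp6v0a2, a subunit of the membrane sector, gave -0.62 ± 0.21 with separate strains and an adjusted p of 0.585 in limma. Atp6v1c1 gave 0.29 ± 0.16 (0.19 without WKY 2) and Atp6v0a1 -0.22 ± 0.13. Atp6ap1, the other accessory subunit, gave -0.09 ± 0.15, a difference that turned direction without WKY 1 and in intensities not normalized between arrays.

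**Figure D5:**
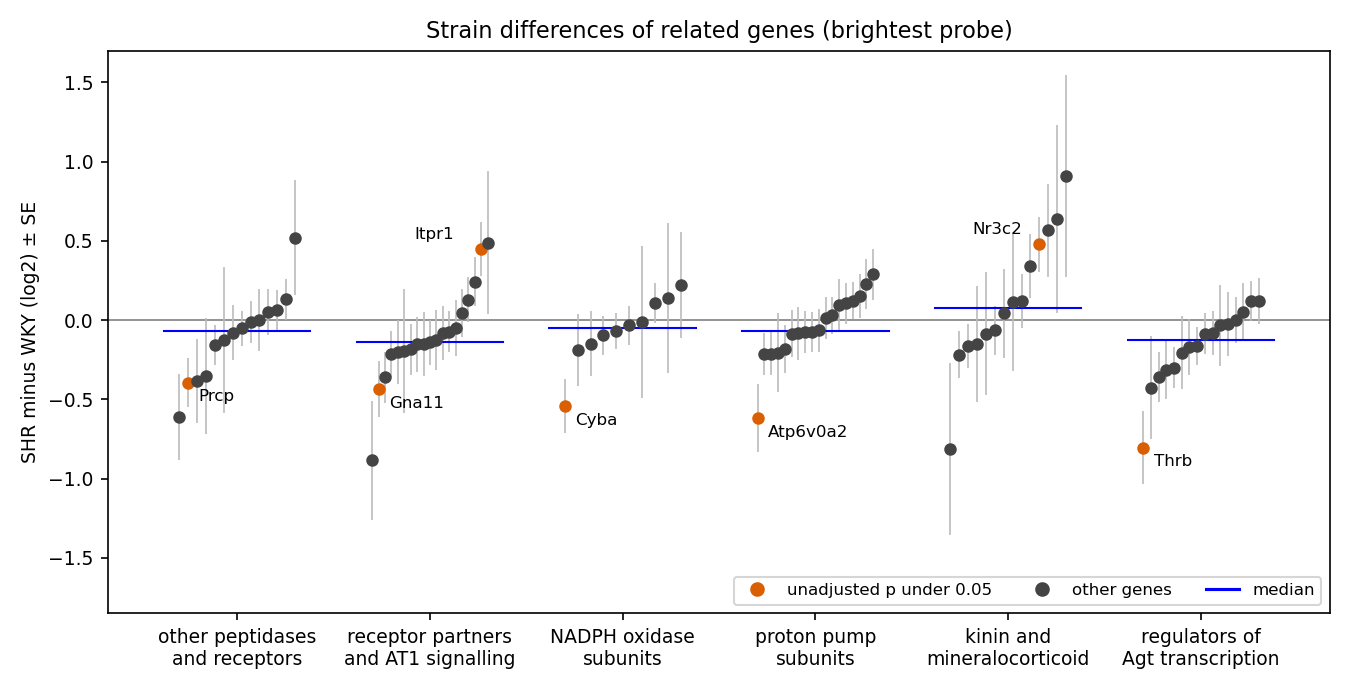
SHR minus WKY difference (vertical axis, log2, with SE) of each gene of 6 related lists, in order of size within a list. Orange points are the 7 genes with an unadjusted p under 0.05 and blue lines are list medians, which lie between -0.14 and 0.08.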

How the data were processed

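Per the series' design text, the authors extracted background-subtracted intensities with the CodeLink software, left out spots under the negative controls plus 2 SD and quantile normalized the arrays, with no versions stated. The deposited series table of intensity, the main source, has the same set of values in all 6 columns and the rank order of the deposited per-sample tables (lowest Spearman rho 1), which were not normalized between arrays. The entries not above 0, 615 per column, include a fixed negative code and were set to missing. Probes needed 3 values in a strain and 2 or more in its comparison strain (33249, with 600 untested), log2 was taken with no offset, and limma 3.58.1 (lmFit and eBayes, R 4.3.3) was fitted with Benjamini-Hochberg adjustment over all probes. The fit was tested on simulated data. Each gene of a list is read at its brightest probe.

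The genes and lists were chosen with earlier results of these data known. Every probe of the 8 genes is named, then up to 3 genes per list by smallest p with Mas1, Lnpep and Atp6ap1, and the 3 genes most like Agt and Agtrap. Some items of the rule are not reported here. Other markers named, and the other probes of Stat3, Mtus1 and Jak2, were chosen after their values were seen. Probes of single symbol were found in the GRCr8 gene table by Entrez identifier in 16724 of 16753 cases. Alternatives covered the source, normalization, offset, filters, variance model, array weights, replicate block and single arrays. Figures used matplotlib 3.10.9.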

Additional observations from a re-analysis of the deposited data

How the results depend on the processing

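No probe of the 8 genes passed an adjusted p of 0.05 in any of the 18 alternatives, and the count at an unadjusted p under 0.05 was 4 or 5 of 11 in the 12 that keep all arrays and 3 to 4 without single arrays. The count of all probes past the threshold was 17 with an offset of 50, 1 with values not above 0 at the lowest positive value, 5 with probes valid on all 6 arrays, 18 without the dimmest 25% of probes, 28 with an intensity trend and robust prior, 5 with array weights and 0 otherwise. The directions of Agt, Agtrap, Ace and Enpep held in all 18 alternatives, and that of Agtr1b in the 17 that kept its probe, which is left out with the dimmest 25%. At probes whose strains did not overlap, leaving out a single array could not turn the direction, so those alternatives do not test it. The median of all probes was 0.12 in intensities not normalized between arrays, where Agt gave -0.63 and its unadjusted p was 0.051.

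With single arrays left out, Agtr1a ran from -0.34 to 0.14, Atp6ap2 probe 1 from -0.080 to 0.12, Ncf4 from -0.37 to 0.0057, Mas1 from -0.53 to 0.24, Lnpep from -0.20 to 0.022 and Atp6ap1 from -0.16 to 0.036. Lnpep gave 0.018 and Atp6ap1 0.061 in intensities not normalized between arrays. The listed genes at an unadjusted p under 0.05, 7 in the main setting, were 3 in those intensities, 11 without the dimmest 25% of probes, 11 with every probe of each gene counted (probes, not genes), 13 without WKY 1, 3 without SHR 1 or SHR 3, 4 without WKY 2 and 2 without WKY 3.

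Adding a replicate block (replicate number), 4 of the 11 probes had an unadjusted p under 0.05 and 0 passed the adjusted threshold. In that fit the SE was 0.32 at Enpep (0.58 without the block) and 0.14 at Agtrap probe 3 (0.13 without it). Deviations of same-numbered arrays correlated at 0.0011, 0.22 and -0.13, and other pairings at -0.25 to 0.27. These values do not settle whether the numbers pair the arrays. For each of these changes the cause was not tested. Signal over background was not measured for single probes here.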

Other observations

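Kallikrein-kinin and mineralocorticoid genes share Ace with the angiotensins or act after them. Of 17 listed genes 14 were measured, 8 higher and 6 lower in SHR, with a median of 0.08. Nr3c2, the mineralocorticoid receptor gene, was the 1 member with an unadjusted p under 0.05. It gave 10.14, 9.76 and 10.27 in SHR and 9.71, 9.48 and 9.54 in WKY, a difference of 0.48 ± 0.17 (SE; adjusted p = 0.608 in limma), with SHR 2 and WKY 1 only narrowly apart. The kallikrein gene Klk1 gave 0.57 ± 0.29 and the bradykinin B2 receptor gene Bdkrb2 gave 0.34 ± 0.20, neither past the threshold. Both were dim, under the lower quartile of the array on every array. Mean log2 was 6.34 in SHR and 5.77 in WKY for Klk1, and 6.70 and 6.36 for Bdkrb2. Klk1 gave 0.33 without WKY 2 and 0.34 without SHR 3, and Bdkrb2 0.19 without WKY 3 and 0.54 without WKY 1. In median-centred intensities they gave 0.34 and 0.14, and with an offset of 50 units 0.32 and 0.22.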
